A study of Mus musculus with 45 samples.

Results

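Cdx, Meis and Pbx genes encode homeodomain transcription factors that act on or with the Hox genes, and 8 of them were followed here through retinoic acid (RA) treatment of mouse embryonic stem cells (ESCs) that lack 1 or both copies of a long non-coding RNA. The 8 genes were Cdx1, Cdx2, Cdx4, Meis1, Meis2, Meis3, Pbx2 and Pbx3, picked by symbol from the 33924 genes of each RNA-seq table. All 8 had values that varied between samples, as did 21979 genes of the ΔPG table and 22048 of the ΔG table. Treatment with RA raised Meis1, Meis2, Meis3, Pbx2 and Pbx3 and lowered Cdx1 in all 4 genetic backgrounds, whereas Cdx2 stayed low and Cdx4 stayed near the bottom of the scale.

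Hox genes lie in clusters whose members are switched on in order along the body axis, and RA is a classical inducer of the 3′ end of these clusters. Cdx proteins are caudal-type factors that bind Hox regulatory DNA and activate posterior Hox genes. Meis and Pbx proteins belong to the TALE class, whose homeodomain carries an extra loop, and they bind DNA together with Hox proteins as cofactors, with Meis also carrying Pbx into the nucleus.

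The cells were ESCs of the D3 line (strain 129). The ΔPG deletion took out the upstream promoter together with the gene body of lncRNA 5430416N02Rik and left PGK-puro in their place. The ΔG deletion spared the promoter and put GFP-IRES-Puro where the gene body had been. Each deletion was studied as heterozygous (het) and homozygous (hom) ESCs, either in the ES state after the DMSO vehicle or after RA at micromolar dose for the same time, with 3 biological replicates in each of the 8 groups and 24 samples in all. No wild-type RNA-seq group was analysed here, so every sample carried at least 1 deleted copy and a drug selection cassette. The study used more than 1 clone of each genotype for phenotyping but names 1 for each beside its RNA-seq. The sample labels name no clone, so that clone and genotype cannot be told apart. The values were regularized log (rlog) values, a log2-scale read count that DESeq2 shrinks towards the gene's mean where counts are low. The ΔPG and ΔG tables were normalized separately, each over its 12 samples, and no test was run between them. Sequencing depth is unknown, since these values do not hold it.

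The deleted gene checked the labels. 5430416N02Rik (NCBIM37, chr5:100849861-100858535, minus strand) stood at 4.60 ± 0.02 (SD, n = 3) in het and 2.30 ± 0.14 in hom ΔPG ESCs, and at 5.54 ± 0.04 and 2.75 ± 0.11 in het and hom ΔG ESCs. After RA it was again lower in hom cells, at 2.35 ± 0.28 against 4.16 ± 0.33 in ΔPG and 2.83 ± 0.23 against 5.58 ± 0.06 in ΔG. Pluripotency markers had a summed level (log2 of the summed unlogged rlog values) of 13.7 to 13.9 in the 6 ES samples and 10.5 to 10.6 in the 6 RA samples of the ΔPG table, and of 14.1 in the ES and 10.3 to 10.5 in the RA samples of the ΔG table.

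Some libraries stood apart. The deviation of a gene's value from its mean over the table was correlated, across 11904 genes, with the GC content of its exons at r = 0.333 to 0.339 in the 3 het ΔPG ES samples and at r = -0.292 to -0.238 in the 3 hom ΔPG ES samples. In the other 6 groups (11904 genes in ΔPG and 11997 in ΔG) r lay between -0.135 and 0.165. Genes are not independent replicates, and r is given as a description. In the ΔPG ES samples the GC trend and the genotype cannot be told apart, so differences that involve them are also given, for the 6 genes where it could be done, with the trend removed, whereas counts over gene lists are given without that step.

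At the level of single genes, rlog values less the log2 of the exonic length in kb allow genes to be ranked within a group. In het ΔPG ESCs, Cdx1 led at 8.22, above 97.1% of the genes that vary, followed by Pbx2 at 5.70, Meis3 at 3.59, Meis2 at 2.77, Pbx3 at 2.37, Meis1 at 1.74, Cdx2 at 0.89 and Cdx4 at -2.10. After RA the order in the same cells was Pbx2 at 6.62, Meis1 at 5.69, Meis2 at 5.39, Meis3 at 4.82, Cdx1 at 4.67, Pbx3 at 3.50, Cdx2 at 0.85 and Cdx4 at -2.10. Cdx1 thus went from the first to the fifth place and Meis1 from the sixth to the second. The neighbours Meis3 and Cdx1 after RA differed by less than the SD of Meis3 over its 3 samples (0.19). In het ΔG ESCs, Meis2 at 3.10, Pbx3 at 3.07 and Meis3 at 3.04 lay within their SDs (0.11, 0.13 and 0.15) of each other. The GC trend was not removed from these levels. Meis3 was 3rd in het and hom ΔPG ESCs, 5th in het ΔG and 4th in hom ΔG ESCs. Cdx1 was first and Pbx2 second in all 4 ES groups, and Pbx2, Meis1 and Meis2 led in this order in all 4 RA groups.

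**Figure D1:**
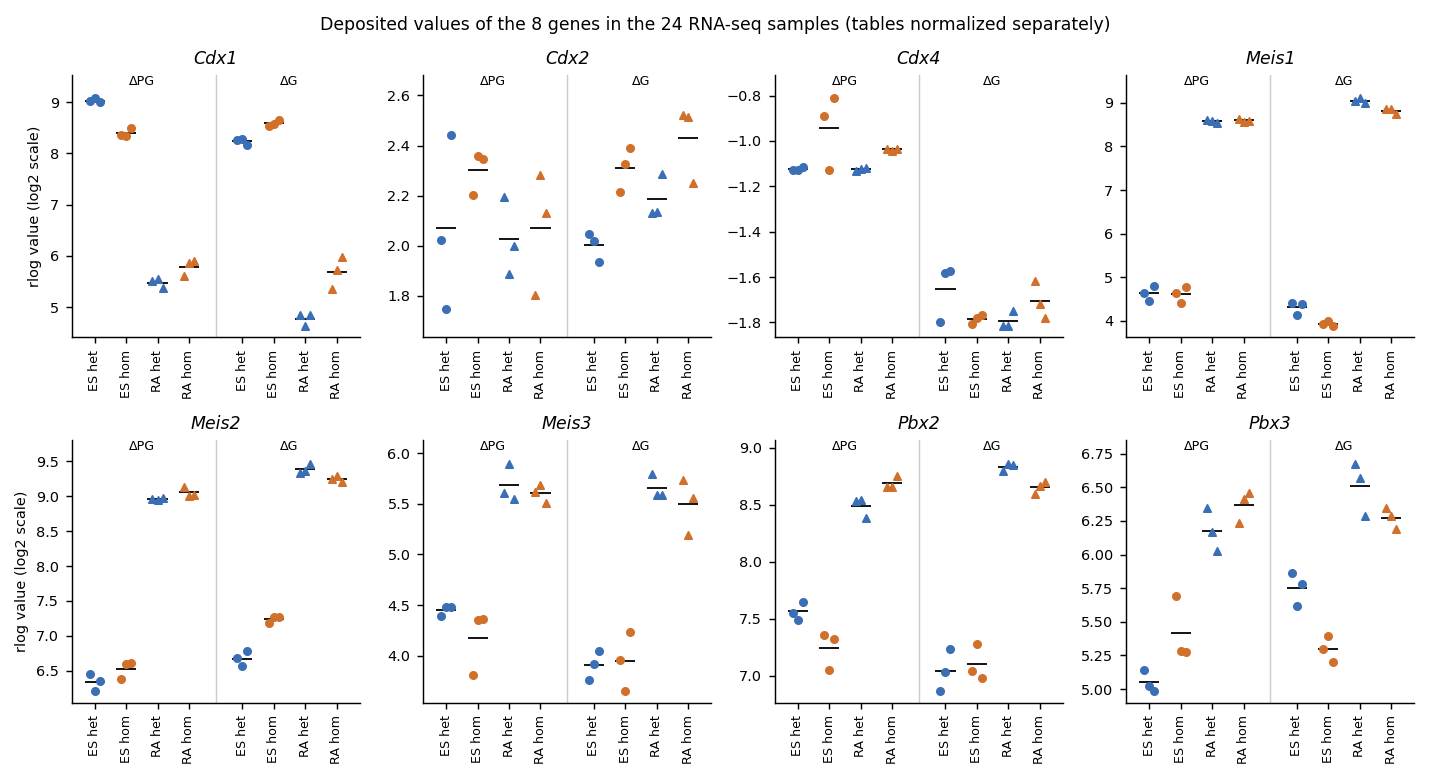
Deposited rlog values (log2 scale, y axis, a separate range for each gene) of the 8 genes in every sample of the 8 groups (x axis), with het samples in blue, hom samples in orange, ES samples as circles, RA samples as triangles and group means as bars. Cdx1 falls from between 8.16 and 9.07 in ES samples to between 4.64 and 5.97 after RA, Meis1 rises from between 3.88 and 4.79 to between 8.54 and 9.10, and the values of the ΔPG and ΔG tables are on separate scales.

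The first comparison asked how the 8 genes responded to RA in each genotype. Differences were tested with limma on all genes of a table that vary, and a gene was called where its Benjamini-Hochberg adjusted p was under 0.1 and its log2 difference over 0.5. In each of the 4 RA comparisons 5 of the 8 genes were called higher, 1 lower and 2 not called. Of all genes tested, 31.6% were called in het ΔPG (18.0% higher and 13.6% lower), 27.8% in hom ΔPG (16.5% higher and 11.3% lower), 29.5% in het ΔG (17.7% higher and 11.7% lower) and 29.2% in hom ΔG (17.0% higher and 12.1% lower). The split of all calls moved with the scaling. Quantile normalization lowered the share of higher calls to 48.7% in het ΔPG, from 57.0%, to 49.2% in hom ΔPG, from 59.4%, to 47.9% in het ΔG, from 60.2%, and to 47.1% in hom ΔG, from 58.4%, and the 6 calls among the 8 genes kept their direction under it. With 3 samples against 3, an exact two-sided permutation test of a single gene cannot go below p = 0.1, so the calls rest on the spread that limma shares across genes.

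Cdx1 (NCBIM37, chr18:61178516-61195853, minus strand) is the Cdx gene that was abundant in these ESCs, and it is known as an early target of RA and Wnt signals in the embryo. In het ΔPG cells its 3 ES samples read 9.01, 9.07 and 9.00 and its 3 RA samples 5.50, 5.55 and 5.37. In hom ΔPG cells the ES samples read 8.36, 8.34 and 8.49 and the RA samples 5.60, 5.86 and 5.91. In het ΔG cells the values went from 8.27, 8.28 and 8.16 to 4.84, 4.64 and 4.85. In hom ΔG cells they went from 8.53, 8.57 and 8.65 to 5.35, 5.74 and 5.97. Every RA sample lay below every ES sample of its table. The log2 difference was -3.55 (SE 0.06) in het ΔPG, -2.61 (SE 0.09) in hom ΔPG, -3.46 (SE 0.09) in het ΔG and -2.90 (SE 0.12) in hom ΔG, that is 6.11 to 11.7 times lower on the rlog scale, with limma adjusted p of at most 7.5e-09. Among all genes tested, this fall ranked 21st in het ΔPG, 79th in hom ΔPG, 45th in het ΔG and 70th in hom ΔG.

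Cdx2 and Cdx4 showed no such change. Cdx2 (chr5:148112381-148118846, minus strand), which specifies trophectoderm in the blastocyst and later acts in the posterior embryo, stood between 1.74 and 2.44 in the 12 ΔPG samples and between 1.94 and 2.52 in the 12 ΔG samples. Its RA difference was -0.04 (95% interval -0.50 to 0.42) in het ΔPG, -0.23 (-0.60 to 0.14) in hom ΔPG, 0.18 (-0.08 to 0.45) in het ΔG and 0.12 (-0.18 to 0.41) in hom ΔG. The ΔPG intervals reach the size limit of 0.5, so a change of that size would not be told from none there. Under quantile normalization the Cdx2 difference turned to -0.02 and -0.09 in het and hom ΔG and reached -0.50 in hom ΔPG, where it was called (limma adjusted p = 0.035). Cdx4 (chrX:100516737-100525931, plus strand), the X-linked Cdx gene of the posterior embryo, stood between -1.13 and -0.81 in ΔPG and between -1.82 and -1.57 in ΔG samples, and none of its RA differences was called. Values this low rest on few reads and are pulled together by the rlog shrinkage, so a change of Cdx2 or Cdx4 may not be detectable at this depth.

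The 3 Meis genes rose in all 4 comparisons. Meis1 (chr11:18780433-18918961, minus strand), a Hox cofactor known from limb, hindbrain and blood development, had the largest rise of the 8. Its ES samples read 4.64, 4.46 and 4.79 in het ΔPG, 4.64, 4.41 and 4.77 in hom ΔPG, 4.41, 4.14 and 4.37 in het ΔG and 3.92, 4.00 and 3.88 in hom ΔG. Its RA samples read 8.60, 8.59 and 8.54 in het ΔPG, 8.64, 8.57 and 8.59 in hom ΔPG, 9.05, 9.10 and 8.99 in het ΔG and 8.85, 8.85 and 8.74 in hom ΔG. The ES and RA samples did not come near each other in any background. The difference was 3.95 (SE 0.08) in het ΔPG, 3.99 (SE 0.09) in hom ΔPG, 4.74 (SE 0.09) in het ΔG and 4.88 (SE 0.09) in hom ΔG, or 15.4 to 29.5 times higher on the rlog scale, and it ranked 25th, 13th, 22nd and 14th from the largest rise among the genes tested in these 4 comparisons.

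Meis2 (chr2:115688800-115891575, minus strand), the Meis paralog with broad roles in brain, limb and neural crest, was already higher in ESCs than Meis1. In het ΔPG cells it went from 6.45, 6.21 and 6.35 to 8.96, 8.95 and 8.97. In hom ΔPG cells it went from 6.38, 6.60 and 6.61 to 9.13, 9.01 and 9.02. In het ΔG cells it went from 6.68, 6.56 and 6.78 to 9.34, 9.36 and 9.47, and in hom ΔG cells from 7.19, 7.27 and 7.27 to 9.25, 9.29 and 9.21. The RA samples of the 2 genotypes of a table lay closer to each other than to any ES sample. The difference was 2.62 (SE 0.06), 2.52 (SE 0.07), 2.72 (SE 0.07) and 2.01 (SE 0.06) in the same order, 4.02 to 6.57 times higher.

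Meis3 (chr7:16760729-16771853, plus strand), a paralog studied in hindbrain patterning, rose less. Its ES samples lay between 3.65 and 4.48 over both tables and its RA samples between 5.19 and 5.89, so that the 2 states did not overlap. The difference was 1.23 (SE 0.11) in het ΔPG, 1.43 (SE 0.16) in hom ΔPG, 1.74 (SE 0.12) in het ΔG and 1.55 (SE 0.16) in hom ΔG.

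The 2 Pbx genes rose as well. Pbx2 (chr17:34728211-34734345, plus strand), a broadly expressed partner of Meis and Hox proteins, went from 7.55, 7.50 and 7.65 to 8.54, 8.54 and 8.38 in het ΔPG and from 7.36, 7.05 and 7.32 to 8.66, 8.66 and 8.75 in hom ΔPG. In het ΔG it went from 6.87, 7.03 and 7.24 to 8.80, 8.86 and 8.85, and in hom ΔG from 7.05, 7.28 and 6.98 to 8.60, 8.67 and 8.70. ES and RA samples were apart in every background. The difference was 0.92 (SE 0.06), 1.45 (SE 0.08), 1.79 (SE 0.08) and 1.55 (SE 0.08). Pbx3 (chr2:34026977-34228660, minus strand), the paralog known for its part in the hindbrain control of breathing, lay between 4.98 and 5.69 in ES and between 6.03 and 6.46 in RA samples of ΔPG, and between 5.20 and 5.86 and between 6.19 and 6.68 in those of ΔG. Its difference was 1.13 (SE 0.10) in het ΔPG, 0.95 (SE 0.12) in hom ΔPG, 0.76 (SE 0.11) in het ΔG and 0.98 (SE 0.10) in hom ΔG. The 5 rises and the fall of Cdx1 were called under every alternative tried in all 4 comparisons.

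The RA differences in ΔPG cells kept their direction and call with the GC trend removed, with shifts in size. Cdx1 was then at -3.32 in het and -2.87 in hom cells. Meis1 was at 3.72 and 4.04, Meis2 at 2.39 and 2.57 and Meis3 at 1.48 and 1.25 in the same order. Pbx2 was at 1.16 and 1.36, and Pbx3 at 0.97 and 0.99. Cdx2 and Cdx4 were too low for this step.

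**Figure D2:**
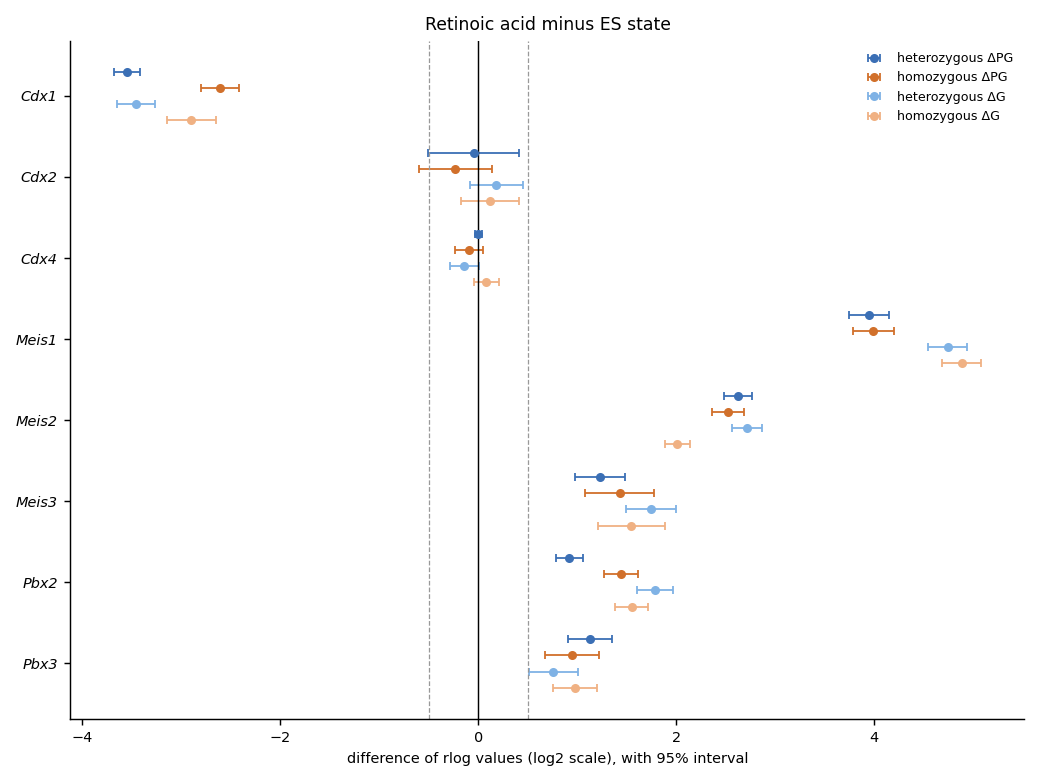
RA minus ES difference of rlog values (x axis, log2 scale) for the 8 genes (y axis) in the 4 backgrounds, as points with 95% intervals from limma. Dashed lines mark the size limit of 0.5. Cdx1 lies between -3.55 and -2.61, Meis1 between 3.95 and 4.88, and the intervals of Cdx2 include 0 in all 4 backgrounds.

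RefSeq start regions (GRCm38.p6) were given for 6 of the 8 genes, namely Cdx2, Cdx4, Meis1, Meis2, Meis3 and Pbx2. The 250 bases before the start of the 4 of them that rose with RA are printed here, as the stretch in which short motifs of RA receptors, Cdx, Meis and Pbx proteins and general promoter elements were searched. Capitals mark matches on either strand to any motif searched, and the sequences run 5′ to 3′ in the direction of transcription.
Meis1, chr11:19018970-19019219, minus strand: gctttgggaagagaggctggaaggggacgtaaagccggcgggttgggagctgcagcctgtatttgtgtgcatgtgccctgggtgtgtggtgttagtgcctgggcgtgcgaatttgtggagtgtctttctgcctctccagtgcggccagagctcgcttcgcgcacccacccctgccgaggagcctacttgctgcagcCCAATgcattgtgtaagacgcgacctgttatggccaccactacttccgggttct
Meis2, chr2:116064620-116064869, minus strand: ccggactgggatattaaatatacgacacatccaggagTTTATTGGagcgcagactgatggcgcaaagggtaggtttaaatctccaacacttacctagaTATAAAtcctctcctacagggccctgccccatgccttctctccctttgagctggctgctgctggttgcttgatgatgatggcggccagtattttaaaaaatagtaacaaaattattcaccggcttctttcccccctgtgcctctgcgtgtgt
Meis3, chr7:16175145-16175394, plus strand: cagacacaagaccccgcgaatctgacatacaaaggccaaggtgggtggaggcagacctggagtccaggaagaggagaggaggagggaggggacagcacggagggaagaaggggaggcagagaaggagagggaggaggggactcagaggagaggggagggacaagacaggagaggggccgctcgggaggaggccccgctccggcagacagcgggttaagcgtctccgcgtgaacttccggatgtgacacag
Pbx2, chr17:34592009-34592258, plus strand: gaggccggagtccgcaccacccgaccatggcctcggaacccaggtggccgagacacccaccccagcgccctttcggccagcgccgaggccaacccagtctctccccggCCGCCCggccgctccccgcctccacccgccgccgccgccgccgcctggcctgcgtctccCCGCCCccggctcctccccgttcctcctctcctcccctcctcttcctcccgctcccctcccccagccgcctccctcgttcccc
The motifs searched on both strands were the nuclear receptor half-site AGGTCA, its direct repeats with any 5 or any 2 bases between the copies, the Meis motif TGACAG, the Pbx and Hox motif TGATTNAT, the Cdx motif TTTATNG, the TATA box TATAAA, the GC box GGGCGG and the CCAAT box CCAAT. In Meis2 the first capitals hold a Cdx motif (bases -213 to -207 from the start) that overlaps a CCAAT box on the other strand (-210 to -206), and the second are a TATA box (-152 to -147). Meis1 held a CCAAT box (-54 to -50), Pbx2 held 2 GC boxes on the minus strand (-142 to -137 and -83 to -78), and Meis3 held none of the motifs. Of 32851 RefSeq start regions of the same length, 9.81% held the Cdx motif, 12.4% the TATA box, 32.7% the GC box and 33.8% the CCAAT box. None of the 6 regions held AGGTCA, which 14.0% of all regions held, TGACAG, which 15.9% held, TGATTNAT, which 2.82% held, or either direct repeat, which 0.00913% held each. The GC content of the printed regions ran from 47.6% in Meis2 to 59.6% in Meis1, 63.6% in Meis3 and 77.6% in Pbx2.

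The other genes of the Hox pathway give the setting of these changes. The list median is given beside the median of all genes tested, which lay between 0.01 and 0.04 in the 4 RA comparisons. Of 39 Hox genes, 27, 27, 26 and 24 were called higher and 2, 1, 1 and 2 lower in het ΔPG, hom ΔPG, het ΔG and hom ΔG, with list medians of 0.72 to 1.18. Hoxb2, which patterns the hindbrain, rose by 3.35 (SE 0.17) in het ΔPG and by 4.29 (SE 0.11) in het ΔG, and Hoxb1, the direct RA target at the 3′ end of its cluster, rose by 2.81 (SE 0.11) and 3.18 (SE 0.11). Hoxa5 rose by 3.10 (SE 0.13) and 2.74 (SE 0.12) and Hoxb3 by 2.83 (SE 0.11) and 2.77 (SE 0.11) in the same 2 backgrounds. Hoxc12, near the 5′ end of its cluster, was lower in all 4, from -1.42 to -0.90. The summed level of the 39 genes lay between 7.99 and 8.10 in ES and between 9.93 and 9.99 in RA samples of ΔPG, and between 8.11 and 8.26 in ES and between 10.02 and 10.13 in RA samples of ΔG.

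Of the other 13 TALE genes, 6, 5, 5 and 7 were called higher and 0, 1, 1 and 1 lower in the same order, with medians of 0.41 to 0.59. Irx3, an Iroquois factor of neural patterning, rose by 2.91 (SE 0.10), 3.10 (SE 0.14), 3.33 (SE 0.13) and 3.65 (SE 0.14). Irx5 and Pknox2, the latter a close relative of the Meis genes that also binds Pbx, rose by 1.20 to 1.62 and by 1.01 to 1.70. Tgif1, a TALE repressor of TGF-β and RA signalling, was the gene called lower, at -0.50 in hom ΔPG, -0.53 in het ΔG and -0.63 in hom ΔG.

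Of 13 tested genes that feed into Hox regulation by other routes, 6 were called higher in each comparison, and 1, Gbx2, was called lower in het ΔPG only, at -0.64. Gdf11, a TGF-β family ligand of axial patterning, rose by 1.56 to 2.50. Wnt and Fgf signals switch on Cdx genes in the posterior embryo. Of 14 ligands, effectors and target genes of these pathways, 2 were called higher in each comparison, and 5, 4, 4 and 4 lower, with medians of -0.08 to 0.04. Fgf4 is also counted among the pluripotency markers. Fgf4, an ESC growth factor, fell by 4.41 (SE 0.04) in het ΔPG and by 4.88 (SE 0.08) in het ΔG, Sp5, a Wnt target gene, fell by 2.15 (SE 0.10) and 2.02 (SE 0.15), and Axin2, a feedback inhibitor of Wnt signals, fell by 1.38 (SE 0.06) and 1.05 (SE 0.08). T, the brachyury gene of the primitive streak, was called lower in all 4, at -1.53 to -0.71. Wnt5a rose by 0.96 to 1.86.

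Of 10 genes of the RA response, 9 were called higher and 1 lower in every comparison, with medians of 2.44 to 3.01. Cyp26a1, the enzyme that degrades RA, rose by 4.60 (SE 0.08) in het ΔPG and 5.88 (SE 0.14) in het ΔG, and Cyp26b1, its paralog, by 4.74 (SE 0.08) and 4.96 (SE 0.15). Rarg, an RA receptor, was the gene called lower, at -1.72 to -1.22. Cdx1 thus fell in the samples in which RA target genes rose.

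Markers of other cell types moved with RA too. All 10 markers of extraembryonic endoderm were called higher in all 4 comparisons, with medians of 2.24 to 2.95, and their summed level went from between 9.28 and 9.74 in ES to between 11.6 and 12.4 in RA samples of ΔPG. Col4a1, a basement membrane collagen and the most abundant of them in ΔPG after RA, rose by 3.94 (SE 0.08) in het ΔPG, and Gata6, a defining factor of primitive endoderm, by 3.86 (SE 0.08). Of 13 trophoblast markers tested, 6, 6, 6 and 7 were called higher, led by the keratins Krt18 and Krt8, which other epithelia also express, and 3, 3, 3 and 2 were lower, among them Tfap2c. Tpbpa, which marks the spongiotrophoblast, was listed at 0 in every sample. Of 8 or 9 mesoderm markers 4 were called higher, with Meox1 up by 3.18 to 4.53, and 1 lower, the T gene given above. Of 6 or 7 neural markers 3 were called higher, with Pax6 up by 2.31 to 2.86, and 1 lower, Tubb3, a neuronal tubulin, at -1.56 to -0.60. Pluripotency markers were called lower in 10, 9, 10 and 10 of 11. In bulk samples, fewer cells of a type and less RNA per cell cannot be told apart, and the part of these markers in the changes of the 8 genes was not tested.

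**Figure D3:**
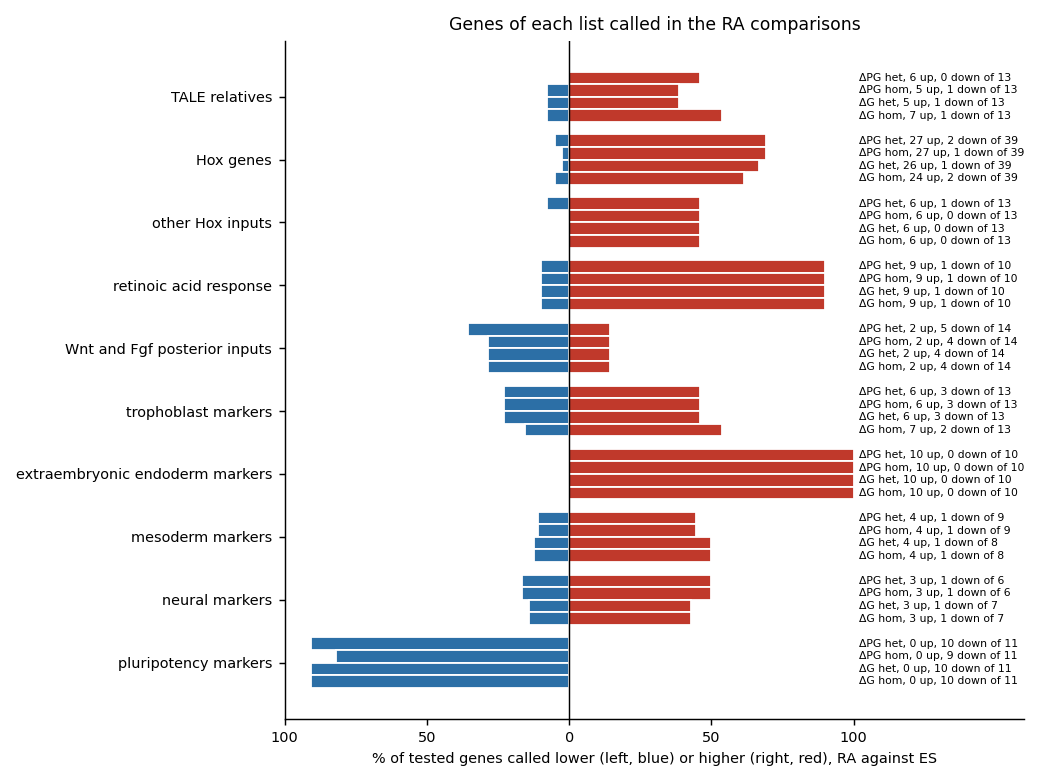
Percentage of the tested genes of each list called higher (right, red) or lower (left, blue) after RA (x axis), with 1 bar for each of the 4 backgrounds and the counts printed beside it. All 10 extraembryonic endoderm markers are higher in every background, 24 to 27 of 39 Hox genes are higher, and 9 or 10 of 11 pluripotency markers are lower.

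Genes whose values ran most like those of the 8 were found among 3554 genes with a mean of at least 3 and a range of at least 1 in both tables, by Pearson's r over the 12 samples of each table. These samples fall into an ES and an RA set, which sets most of r, and r is a description. Cdx1 was most like Mybl2, Mcm5 and Tubb2b (r of 0.993 each as the mean over both tables), of which the first is a cell-cycle transcription factor and the second a subunit of the replicative helicase. Meis1 was most like Hs6st2 (0.999), Peg3 (0.998) and Mex3b (0.998), and Meis2 most like Rai14, Peg10 and F2r (0.995 each). Peg3 and Peg10 are imprinted genes expressed from the paternal copy. Meis3 was most like Rec8 (0.981), Abtb2 (0.979) and Ptpn14 (0.979), Pbx2 most like Fam171a2 (0.990), Spsb4 (0.989) and Bmf (0.989), and Pbx3 most like Mll5 (0.971), Prom1 (0.967) and 2610018G03Rik (0.967).

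The next comparison asked whether loss of the second copy of 5430416N02Rik changed the 8 genes in the ES state. In ΔPG ESCs, 1 of the 8, Cdx1, was called lower in hom than in het cells and none higher, where 13.2% of all genes were called (6.87% higher and 6.29% lower). Cdx1 was 0.63 lower (SE 0.05, limma adjusted p = 3.2e-05), with the 3 hom samples below the 3 het samples. With the GC trend removed the Cdx1 difference was -0.14 (adjusted p = 0.012), under the size limit, and Cdx1 has the highest exonic GC content of the 8 at 62.1%. Pbx2 was at -0.32 (adjusted p = 0.023) and Pbx3 at 0.37 (adjusted p = 0.062), both under the size limit, and at 0.01 and 0.17 with the trend removed. The 95% intervals of Meis1 (-0.33 to 0.29), Meis2 (-0.02 to 0.40), Meis3 (-0.66 to 0.10) and Cdx2 (-0.19 to 0.66) include 0. With the trend removed Meis1 was at -0.30, Meis2 at -0.09 and Meis3 at 0.15, none of them called. Cdx4 was at 0.18 (adjusted p = 0.099), under the size limit, and its groups overlapped.

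Some markers of cell state differed between the same ΔPG ES samples, where 13.2% of all genes were called. Of 11 pluripotency markers 1 was called lower in hom cells, Pou5f1, the Oct4 gene, at -0.52 (SE 0.02, limma adjusted p = 1.8e-06), and of 6 neural markers 2, Tubb3 at -0.72 (SE 0.05) and Nes, the nestin gene of neural progenitors, at -0.65 (SE 0.07). Of 10 extraembryonic endoderm markers Col4a1 was called lower at -0.73 (SE 0.10) and Pdgfra higher at 0.56 (SE 0.14), and of 13 trophoblast and 9 mesoderm markers none was called by limma, with an unadjusted p under 0.05 for 2 and 0 of them. The summed level of the neural markers, with Nes the most abundant, was 9.29 to 9.30 in het and 8.59 to 8.68 in hom samples. That of the pluripotency markers was 13.89 to 13.93 and 13.75 to 13.76. For the extraembryonic endoderm markers it was 9.67 to 9.74 and 9.28 to 9.35, and for the trophoblast markers 9.32 to 9.38 and 9.06 to 9.11. The sums of the mesoderm markers overlapped. With the GC trend removed none of the 5 was called, at -0.22 for Pou5f1, -0.31 for Tubb3, -0.33 for Nes, -0.35 for Col4a1 and 0.50 for Pdgfra. The part of these markers in the Cdx1 difference was not tested.

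In ΔG ESCs, 0.984% of all genes were called (0.354% higher and 0.630% lower), and of the 8 genes Meis2 was called higher. Its het samples read 6.68, 6.56 and 6.78 and its hom samples 7.19, 7.27 and 7.27, without overlap. The difference was 0.57 (SE 0.07, limma adjusted p = 0.0091), 62nd from the largest rise of 22048 genes. Its adjusted p was 0.13 with the replicate number as a block. Cdx1 was 0.35 higher (SE 0.05, adjusted p = 0.018) and Pbx3 0.45 lower (SE 0.10, adjusted p = 0.058), both under the size limit, and Meis1 was at -0.37 (SE 0.10, adjusted p = 0.13). Cdx2 was at 0.31 (SE 0.09, adjusted p = 0.14), with the 3 hom samples at 2.21 to 2.39 above the 3 het samples at 1.94 to 2.05, and was not called. The 95% intervals of Cdx4 (-0.27 to 0.01), Meis3 (-0.34 to 0.42) and Pbx2 (-0.21 to 0.33) include 0. Cdx1 stood on opposite sides in the 2 deletions, lower in hom ΔPG and higher in hom ΔG ESCs, in tables that were normalized separately, and that difference was not tested.

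Hom and het cells were compared in the same way after RA. In ΔPG none of the 8 was called by limma, where 0.846% of all genes were called. An unadjusted p under 0.05 was met by 4 of the 8 there and by 14% of all genes, and in the other hom against het comparisons by 4 of the 8 and 38.4% of all genes in ΔPG ESCs, 5 and 15.4% in ΔG ESCs and 5 and 19.6% in ΔG cells after RA. Cdx1 was at 0.31 (95% interval 0.08 to 0.55, limma adjusted p = 0.19), Pbx2 at 0.20 (0.08 to 0.32, adjusted p = 0.084) and Meis1 at 0.02 (-0.07 to 0.11). Meis2 was at 0.10 (0.00 to 0.19), Cdx4 at 0.09 (0.03 to 0.14), Pbx3 at 0.19 (-0.03 to 0.41), Cdx2 at 0.04 (-0.34 to 0.42) and Meis3 at -0.08 (-0.33 to 0.17). In ΔG cells after RA, Cdx1 was called higher and none of the others was called, where 2.14% of all genes were called (0.676% higher and 1.46% lower). The het samples of Cdx1 read 4.84, 4.64 and 4.85 and the hom samples 5.35, 5.74 and 5.97. The hom samples lay above all het samples but spread more widely, with an SD of 0.31 against 0.12. The difference was 0.91 (SE 0.14, limma adjusted p = 0.00019), 1.87 times higher (95% interval 1.53 to 2.30) and 21st from the largest rise of 22048 genes. Meis1 was 0.23 lower (SE 0.06, adjusted p = 0.011) and Pbx2 0.18 lower (SE 0.06, adjusted p = 0.054), both under the size limit. Meis2 was at -0.14 (95% interval -0.25 to -0.03), Pbx3 at -0.24 (-0.45 to -0.02), Meis3 at -0.16 (-0.43 to 0.11) and Cdx4 at 0.09 (-0.06 to 0.23).

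Other markers differed between the same RA-treated ΔG samples, where 2.14% of all genes were called. Of 13 trophoblast markers 4 were called higher in hom cells and none lower, Hand1 by 0.81 (SE 0.16), Tfap2c by 0.81 (SE 0.15), Esx1 by 0.77 (SE 0.13) and Krt7 by 0.77 (SE 0.12), and the median over the list was 0.31 against 0.00 over all genes. Their summed level was 11.88 to 11.99 in het and 12.21 to 12.24 in hom samples, with Krt8 the most abundant, while Cdx2, the trophectoderm factor among the 8, was at 0.24 (95% interval -0.06 to 0.55) and not called. Of 10 extraembryonic endoderm markers 4 were lower, Lama1 by -1.03 (SE 0.03), Dab2 by -0.70 (SE 0.08), Pdgfra by -0.66 (SE 0.06) and Col4a1 by -0.62 (SE 0.03), and their summed level was 12.72 to 12.79 in het and 11.996 to 11.999 in hom samples. Of 7 neural markers 1 was called higher in hom cells, Tubb3 by 0.99 (SE 0.10, limma adjusted p = 6.0e-07), and of 8 mesoderm markers 1, Kdr, a receptor of vascular progenitors, by 0.57 (SE 0.12). In RA-treated ΔPG cells 0.846% of all genes were called. There, 5 of the 10 extraembryonic endoderm markers were lower in hom cells and none of the trophoblast markers was called. The part of these markers in the Cdx1 difference was not tested. Of the 39 Hox genes 1 was called between RA-treated ΔG cells, Hoxa5, which was 0.60 higher (SE 0.11) in hom cells, and 2 between RA-treated ΔPG cells, Hoxb1 at 0.57 (SE 0.09) and Hoxb13 at -0.64 (SE 0.10).

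**Figure D4:**
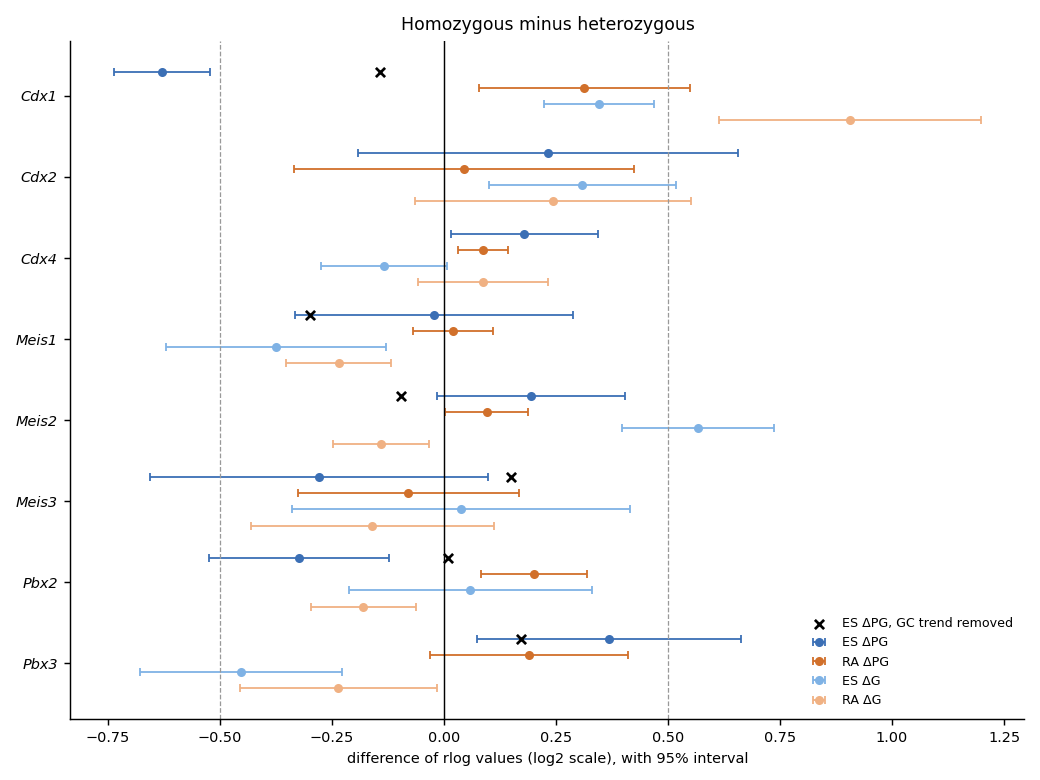
Homozygous minus heterozygous difference of rlog values (x axis, log2 scale) for the 8 genes (y axis) in ES and RA samples of each deletion, as points with 95% intervals from limma, dashed lines at the size limit of 0.5, and crosses for the ES ΔPG differences after removal of the GC trend (6 genes). Cdx1 moves from -0.63 to -0.14 with the trend removed, and stands at 0.91 in RA ΔG.

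The last comparison asked whether the RA response itself differed between hom and het cells, tested as an interaction term with all 12 samples of each deletion. In ΔPG, where 13.9% of all genes were called (6.72% higher and 7.19% lower), Cdx1 and Pbx2 were called. The Cdx1 fall was 0.94 smaller in hom cells (SE 0.11, limma adjusted p = 1.9e-05), and the Pbx2 rise 0.52 larger (SE 0.11, adjusted p = 0.0019). With the GC trend removed these differences were 0.44 (limma adjusted p = 0.0018) and 0.20 (adjusted p = 0.13). Both were under the size limit, and neither was called. The Pbx2 call was also lost when a fold over 1.5 was required. The same held without ES het replicate 3, ES hom replicate 2, RA het replicate 3 or RA hom replicate 3 (0.43 to 0.49). In ΔG, where 2.38% were called (1.19% higher and 1.18% lower), Cdx1 and Meis2 were called. The Cdx1 fall was 0.56 smaller in hom ΔG cells (SE 0.15, adjusted p = 0.039), and the Meis2 rise was 0.71 smaller (SE 0.09, adjusted p = 1.5e-05). Meis2 stood 0.57 higher in hom than in het ΔG cells in the ES state and at -0.14 after RA. The Cdx1 call in ΔG was lost without ES hom replicate 1 (adjusted p = 0.11), RA het replicate 2 (0.14) or RA hom replicate 3 (0.15), with differences of 0.53, 0.49 and 0.42. That call was also lost when a fold over 1.5 was required, and without a variance trend (limma adjusted p = 0.15). The RA responses of Meis1 differed by 0.04 (95% interval -0.24 to 0.33) in ΔPG and 0.14 (-0.13 to 0.41) in ΔG. None of the remaining differences was called. In ΔPG they were -0.10 for Meis2, 0.20 for Meis3, -0.18 for Pbx3, -0.19 for Cdx2 and -0.09 for Cdx4, and with the trend removed 0.32 for Meis1, 0.19 for Meis2, -0.23 for Meis3 and 0.02 for Pbx3. In ΔG they were -0.20 for Meis3, -0.24 for Pbx2, 0.22 for Pbx3, -0.06 for Cdx2 and 0.22 for Cdx4. Markers of other cell types were called in the same tests. In ΔG, 5 of 13 trophoblast markers were higher, 3 of 10 extraembryonic endoderm markers lower and 1 of 7 neural markers, Tubb3, higher. In ΔPG, 4 of 10 extraembryonic endoderm markers were lower, as was Klf4 of 11 pluripotency markers. Of 6 neural markers Nes was higher there, and no trophoblast marker was called. These marker calls in ΔPG are given with the GC trend kept. The part of these markers was not tested.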

How the data were processed

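RNA was measured by stranded total RNA-seq after ribosomal RNA depletion in 24 samples. The authors, per their methods and processing notes, aligned reads with TopHat2 (2.1.0) to mouse build NCBI37/mm9 with GENCODE vM1, removed duplicates with Picard, counted by gene name and strand with HTSeq (0.6.0) and applied normalization and the rlog transformation in DESeq2 (1.14.1). The RNA-seq methods refer to a related assay for these steps. The deposited values are log2 rlog values, 33924 genes in each of 2 tables of 12 samples, of which 11945 (ΔPG) and 11876 (ΔG) are 0 in every sample and were left out. Whether the transformation knew the groups is not given in the sources used here. Depth is unknown, and shrinkage of low values understates their differences.

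Differences were fitted across all genes that vary with limma (3.58.1, R 4.3.3), eBayes with a variance trend, on the 6 samples of a pair of groups or the 12 samples of a table for the interaction, and adjusted by Benjamini-Hochberg. The script was tested on simulated data: at a log2 change of 1, 93.0% of 200 changed genes were recovered in the ΔPG interaction (21979 genes), the lowest of the 10 comparisons. The changed genes all had means above 3. This share therefore does not cover genes as low as Cdx2 and Cdx4, or changes smaller than 1. The GC trend was removed per sample by lowess (span 0.3) over genes with a mean of at least 3, which left out Cdx2 and Cdx4. Positions are from GENCODE vM1 (NCBIM37), start regions from RefSeq (GRCm38.p6), and the builds were not mixed. Alternatives were all samples in 1 fit, stricter limits, no variance trend, a minimum mean of 3, quantile normalization, subtraction of sample medians, a replicate block, GC removal and leaving out each sample. All 8 genes were described in every comparison, and of each list the 4 called genes with the largest difference were to be named; genes of a list called lower, and members called in few comparisons, were also named after their values were seen, and some genes that the rule picks are not reported here. The genes and lists were chosen with earlier results of these data known. The 4C files were not used, and the RIP-seq and Capture-C samples were not analysed here. Listed at 0 in all samples and untested were Evx2, Tpbpa and Olig2 in both tables, Neurog1 in ΔPG and Mesp1 in ΔG. Kmt2a, Kat6a, Tfap2c, Plet1, Foxf1 and Tfcp2l1 were matched under older symbols.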

Additional observations from a re-analysis of the deposited data

Results flagged for a closer look

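The RA response differed between hom and het cells, by an interaction test in limma, for 4 values among the 8 genes. Of all genes tested, 13.9% were called in the ΔPG and 2.38% in the ΔG interaction. In ΔPG the response of Cdx1 differed by 0.94 (limma adjusted p = 1.9e-05) and that of Pbx2 by 0.52 (adjusted p = 0.0019). In ΔG the response of Cdx1 differed by 0.56 (adjusted p = 0.039) and that of Meis2 by -0.71 (adjusted p = 1.5e-05). With the GC trend removed, neither ΔPG value was called, at 0.44 for Cdx1 (limma adjusted p = 0.0018) and 0.20 for Pbx2 (adjusted p = 0.13). The ΔG values were 0.53 and -0.69 under the same removal and stayed called. The ΔG call of Cdx1 was lost under the stricter limits and without a variance trend. It was also lost without ES hom replicate 1, RA het replicate 2 or RA hom replicate 3. Groups of 3 samples were too small for a check of single samples far from the others.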

How the results depend on the processing

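Of 485 values of the 31 calls among the 80 gene and comparison pairs under the alternatives, 467 stayed called in the same direction, 18 were no longer called and none changed direction. All 360 values of the called RA responses stayed called. Without the GC trend, hom against het ΔPG ESCs gave 866 genes called of 11904 tested, with and without the replicate block, and the ΔPG interaction 1122, or 1126 with the block. Over the same 11904 genes with the trend kept, the counts were 2784 and 2976, and over all 21979 genes 2893 and 3056. Without the trend 0 of the 6 genes that could be tested were called in either comparison, in place of 1 and 2 with it kept. Under the stricter limits (adjusted p under 0.05 and a fold over 1.5), ΔG ESCs gave 117 genes in place of 217 and 0 of the 8, RA-treated ΔG cells 275 in place of 471, and the ΔG interaction 268 in place of 524 and 1 of the 8, as did the ΔPG interaction. Without a variance trend the ΔG interaction called 1 of the 8. With each sample left out in turn, 1 to 2 of the 8 were called in either interaction and in ΔG ESCs. Pbx2 in the ΔPG interaction lost its call without ES het replicate 3, ES hom replicate 2, RA het replicate 3 or RA hom replicate 3 (0.43 to 0.49), and Pbx3 in ΔG ESCs gained one without replicate 2 of either genotype (-0.52 and -0.50).

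The replicate numbers showed little pairing of the samples. In ΔPG ESCs each het sample was most like the hom sample of its own number, but only at r = 0.085, 0.010 and 0.049. Same-numbered samples deviated together at r = -0.03 to 0.09 in ΔPG and -0.03 to 0.01 in ΔG, none of 18 pairs in either table was over 0.1, and the own number was the highest in 8 and 3 of 18. The replicate block gave 44 genes called in ΔG ESCs, 0 of them among the 8, and 112 in RA-treated ΔPG cells in place of 186.

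Differences that were not called in the main comparison changed sign as follows, and the cause was not tested. Quantile normalization gave Cdx2 after RA -0.0187 in het and -0.0907 in hom ΔG, and Meis1 0.00423 in ΔPG ESCs. Subtracting sample medians gave Cdx4 after RA in hom ΔG -0.00673. GC removal, with or without the replicate block, gave Meis2 -0.0949, Meis3 0.150 and Pbx2 0.00955 in ΔPG ESCs, and 0.189 for Meis2, -0.226 for Meis3 and 0.0188 for Pbx3 in the ΔPG interaction. With each sample left out, the RA difference in het ΔPG ran from -0.207 to 0.142 for Cdx2 and from -0.00409 to 0.00330 for Cdx4. Hom minus het ran from -0.108 to 0.0758 for Meis1 in ΔPG ESCs, from -0.0601 to 0.179 for Cdx2 and -0.146 to 0.0273 for Meis3 in RA-treated ΔPG cells, and from -0.107 to 0.187 for Meis3 and -0.0306 to 0.155 for Pbx2 in ΔG ESCs. The interaction ran from -0.0547 to 0.129 for Meis1 in ΔPG and from -0.112 to 0.0246 for Cdx2 in ΔG.

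Precision is limited by 3 samples a group, the 1 clone that the study names for each genotype beside its RNA-seq and a depth that is unknown. Small differences of Cdx2 and Cdx4 could not be resolved.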
